A study of Mus musculus with 10 samples.

Results

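The genes described here encode matriptase (St14) and prostasin (Prss8), 2 membrane-bound serine proteases, their Kunitz-type inhibitors HAI-1 (Spint1) and HAI-2 (Spint2), hepatocyte growth factor (Hgf), its receptor (Met) and the HGF activator (Hgfac). These 7 genes, of 19504 named genes on the array, were picked because Spint1 was lower in the lung tumors, so the values of Spint1 are given as a description with no test. All 7 genes had a probe, and together they had 14. A probe was taken as a member where the array named it by the gene's symbol or a synonym. One of these synonyms, AI838057, named 2 probes of Met that lie 19.9 and 20.5 kb downstream of the probe named Met, on the same strand. Another probe, listed as Cap1, matched Prss8 by synonym alone and carried the accession of a different gene, so it was left out.

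Matriptase sits on the surface of epithelial cells and is kept in check by HAI-1 and HAI-2, which also block prostasin. HGF is secreted, mostly by stromal cells, as an inactive single chain. Matriptase, hepsin and the HGF activator can cut it into its active form, which binds Met on epithelial and tumor cells and signals for growth, scattering and invasion. Loss of HAI-1 leaves matriptase unrestrained in mouse skin and gut, and matriptase and both inhibitors are made in the mammary epithelium.

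RNA was measured in 10 mouse mammary tumors or their lung derivatives on 2-colour Agilent arrays, 1 array per tumor. The 5 adenocarcinomas (tumors 105, 131, 470, 17 and 85) were primary mammary tumors of MMTV-Cre mice with both Trp53 R270H and Pik3ca H1047R. The sarcomatoid (spindle cell) group held 3 primary mammary tumors (323, 307 and 594) and 2 lung tumors, which grew after tail vein injection of cell lines made from tumors 323 and 307. By the study's methods, 1 of these pairs came from a mouse of that same genotype and the other from an MMTV-Cre mouse with Pik3ca H1047R alone, whose tumor had gained Trp53 R245H, and the labels do not say which number is which. The remaining sarcomatoid tumor was from an MMTV-Cre mouse with Trp53 R270H alone and is tumor 594, the only sarcomatoid tumor with no lung counterpart. It is labelled sarcomatoid carcinoma, where the other 4 are labelled sarcomatoid adenocarcinoma. Every tumor thus carries a Cre-driven mutation of Pik3ca, Trp53 or both, with Cre under the MMTV promoter, which is active in mammary epithelium. The lung tumors had passed through culture and a new host, so site, culture and transplantation cannot be told apart. The 10 arrays hold 8 tumor origins, and no group had a normal mammary gland.

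Values are log2 ratios of tumor over a common reference. The labels name Cy3 (green) for the tumor RNA, but the green signal varied less between arrays than the red (mean SD of the log2 signal 0.733 against 0.973) and each deposited log2 column followed red over green of its own array more closely than that of any other. Red was therefore read as the tumor, which is the likely direction. The match of the deposited columns shows how the ratio was formed, not which dye held the tumor RNA. Read as red over green, sarcomatoid minus adenocarcinoma was -3.23 for Krt18, -2.32 for Epcam and 2.19 for Plau. The paper reports Krt18 and Epcam lower and Plau higher in the metastatic tumors. If the label is right, every sign below turns, and these genes would run against that report. The share of probes well above background in the tumor channel ranged from 52.2% to 83.0% of an array. The arrays were processed under 3 extraction protocols, called scan batches here, and no date of scanning was used. Tumor 323 alone was in batch 1, and tumors 307, 594, 105 and 470 were in batch 2. Both lung tumors were in batch 3 with tumors 131, 17 and 85. Tumor 470 stood apart from the other adenocarcinomas. Its mean log2 ratio over 14 epithelial markers was -1.19, against 2.48 to 2.96 in the other 4, 0.50 to 1.26 in the mammary sarcomatoid tumors and -1.42 to -1.32 in the lung tumors. The first 3 of these markers in tumor 470 were Cdh1 at 1.74, Epcam at -2.62 and Krt8 at -4.43, all well above background. Results that rest on tumor 470 are given with and without it. Tumor 470 was singled out after its values were seen, so a p-value without it describes the remaining tumors only. In whole tumors, fewer cells of a type and less RNA per cell cannot be told apart.

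The upstream sequences of both inhibitors are shown because Spint1 and Spint2 are the pair whose levels parted in tumor 470. They are the RefSeq bases before the annotated gene on GRCm38.p6, read 5′ to 3′ in the direction of the gene. Capitals mark GGGCGG (a GC box) on either strand, where it reads CCGCCC.
Spint1, chr2:119237110-119237359, plus strand: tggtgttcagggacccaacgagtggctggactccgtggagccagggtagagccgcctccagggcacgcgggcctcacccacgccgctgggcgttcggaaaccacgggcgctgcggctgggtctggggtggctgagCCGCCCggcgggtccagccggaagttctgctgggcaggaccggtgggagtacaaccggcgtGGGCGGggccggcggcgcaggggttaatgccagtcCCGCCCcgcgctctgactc
Spint2, chr7:29282060-29282227, minus strand: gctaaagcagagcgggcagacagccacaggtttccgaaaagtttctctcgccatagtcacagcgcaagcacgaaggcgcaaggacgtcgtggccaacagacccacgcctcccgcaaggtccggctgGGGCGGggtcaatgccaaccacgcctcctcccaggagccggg
In the full 300-base window of each gene (250 before to 50 after the start), both held 3 GC boxes, and 10.7% of 32851 promoter windows held 3 or more. The E-box CAGGTG or its complement CACCTG, the letters that repressors of the Snail and Zeb families are known to bind, was matched 3 times in the Spint2 window, from bases 177, 196 and 242, and not in the Spint1 window. All 3 matches lie past the 168 bases printed for Spint2, within the annotated extent of the gene, and the printed bases hold none. At least 1 match was found in 20.2% of all windows and 3 or more in 0.365%. The windows of Met and Hgfac held 1 and 2 matches, and both windows of Hgf held none. Only 5 of the member genes had a window. St14 and Prss8, which were low with Spint2 in tumor 470, had none and could not be compared. Spint1 and Spint2 were paired after their values were seen, so their contrast is a description. These matches are letters in a window and say nothing of binding.

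Spint1, the inhibitor HAI-1, was high in every mammary tumor, sarcomatoid or not, and low in both lung tumors. Its lead probe (chr2:118990042-118990101 on mm7, the build of the array files), the probe with the highest mean signal, read 3.25 in tumor 323, 3.21 in 307 and 3.85 in 594. The adenocarcinomas read 3.77 (105), 3.66 (131), 3.41 (470), 3.90 (17) and 3.40 (85). The lung tumors read -0.11 (323) and 0.69 (307). All 8 mammary tumors lay within 3.21 to 3.90, with the mammary sarcomatoid tumors at 3.44 ± 0.36 (SD, n = 3) and the adenocarcinomas at 3.63 ± 0.22 (SD, n = 5), so these groups overlapped and differed by less than their spread. In the scanner files, the median spot brightness of the lead probe was 108 and 308 in the lung tumors against 2454 to 9436 in the mammary tumors.

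On the second Spint1 probe the lung tumors were again the lowest, and the order among the mammary tumors differed. It read 2.01, 2.48 and 2.65 in the mammary sarcomatoid tumors 323, 307 and 594. In the adenocarcinomas it lay between 2.49 (470) and 3.31 (17), with a median of 3.23. The lung tumors read -0.13, not well above background, and 0.36. On this probe the mammary sarcomatoid tumors were 0.63 lower than the adenocarcinomas on the log2 scale (SE 0.25), with tumor 594 above tumor 470 alone.

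Lung minus mammary sarcomatoid tumors, the contrast on which the genes were picked, was -3.15 on the lead Spint1 probe (SE 0.28), an 8.87-fold lower ratio, and -2.26 (SE 0.31) on the other. Within tumor numbers, the lung tumor was 10.3-fold lower than its mammary tumor for 323 and 5.72-fold lower for 307. Within scan batch 3, which holds both lung tumors and no mammary sarcomatoid tumor, the lung tumors differed from the 3 adenocarcinomas by -3.37 on the log2 scale. Within scan batch 2, tumors 307 and 594 differed from tumors 105 and 470 by -0.06. Over all 10 tumors, sarcomatoid minus adenocarcinoma was therefore -1.45 on the lead probe (SE 0.72), and with the lung tumors set apart it was -0.20 (SE 0.23). Leaving out the 323 lung tumor alone took the first of these from -1.45 to -0.88.

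**Figure D1:**
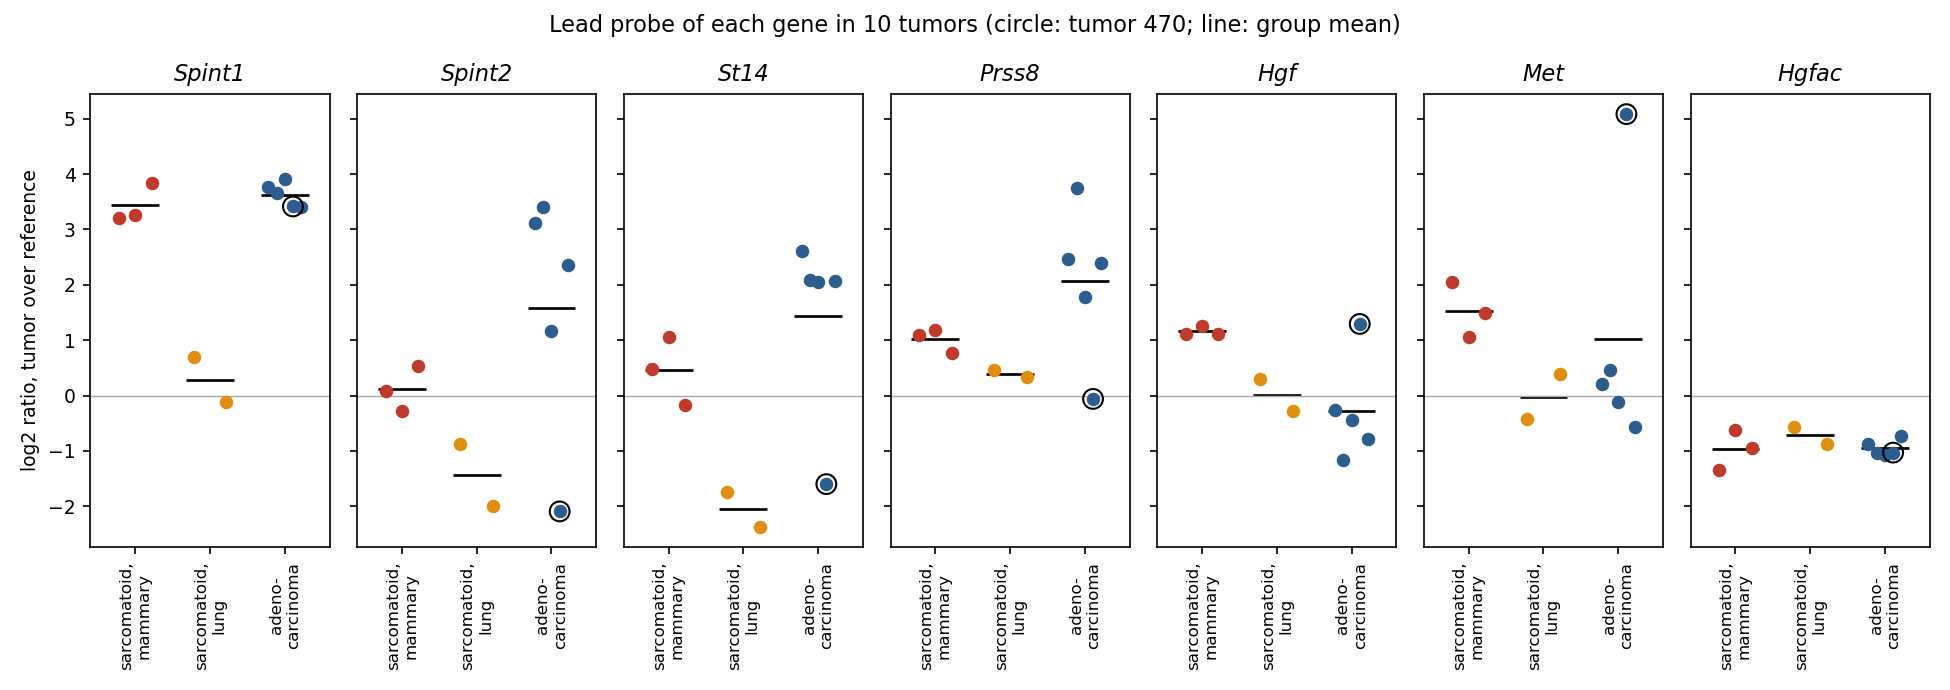
Log2 ratio of tumor over reference (y axis) for the lead probe of each of the 7 genes, with 1 point per tumor in 3 groups (3 mammary sarcomatoid, 2 lung sarcomatoid and 5 adenocarcinomas) and a line at each group mean; the circle marks tumor 470. Spint1 lay at 3.21 to 3.90 in all mammary tumors and at -0.11 and 0.69 in the lung tumors, while tumor 470 sat far from the other adenocarcinomas for Spint2, St14, Prss8, Hgf and Met.

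Spint2, the inhibitor HAI-2, behaved unlike Spint1 in the mammary tumors. Its probe (chr7:26195957-26196016 on mm7) read 3.11 (105), 3.40 (131), 1.17 (17) and 2.35 (85) in 4 adenocarcinomas and -2.09 in tumor 470. The mammary sarcomatoid tumors read -0.28 (323), 0.08 (307) and 0.53 (594). The lung tumors read -1.99 (323) and -0.88 (307), the latter not well above background. Tumor 470 was thus the lowest of all 10 tumors for Spint2 while its Spint1 was within the range of the other mammary tumors, and apart from 470 the sarcomatoid and adenocarcinoma groups did not overlap.

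St14, the protease matriptase, had its lowest values in the same 3 tumors as Spint2, the lung tumors and tumor 470. Its lead probe (chr9:30989227-30989286 on mm7) read 2.61 (105), 2.08 (131), 2.05 (17) and 2.07 (85) in 4 adenocarcinomas and -1.60 in tumor 470. The mammary sarcomatoid tumors read 1.06 (323), 0.48 (307) and -0.16 (594). The lung tumors read -2.36 (323) and -1.75 (307), below every mammary tumor, with tumor 470 next. The second, dimmer St14 probe ranged from 0.87 to 1.17 in the same 4 adenocarcinomas, was -0.14 in tumor 470 and lay between -0.12 and 0.39 in the mammary sarcomatoid tumors. Both lung tumors were not well above background on it (-0.76 and -0.20), so no fold against the lung tumors is given for that probe.

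Prss8 encodes prostasin, a protease anchored by a lipid tail that acts with matriptase. Its probe (chr7:124022705-124022763 on mm7) read 2.47 (105), 3.74 (131), 1.78 (17) and 2.40 (85) in 4 adenocarcinomas and -0.06 in tumor 470. The mammary sarcomatoid tumors read 1.18 (323), 1.09 (307) and 0.77 (594). The lung tumors read 0.34 (323, not well above background) and 0.46 (307). The 5 sarcomatoid tumors were all below the 4 other adenocarcinomas and all above tumor 470.

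None of the 12 member probes tested (those of the 6 genes other than Spint1) passed limma's test over all probes for sarcomatoid against adenocarcinoma (Benjamini-Hochberg, threshold 0.05), and nor did any of the 41174 probes (0%, smallest adjusted p 0.0725). At an unadjusted p under 0.05 there were 4053 probes (9.84%), of which 1 was a member, the second St14 probe. Spint2 was lower by a log2 difference of -2.09 (SE 0.99, 95% CI -4.30 to 0.11, adjusted p 0.53), St14 by -1.99 on the lead probe (SE 0.91, adjusted p 0.52) and -0.86 on the other (SE 0.28, unadjusted p 0.012, adjusted p 0.41), and Prss8 by -1.30 (SE 0.58, adjusted p 0.51). The SD of St14 over the 5 adenocarcinomas was 1.72, and 0.27 over 4 without tumor 470.

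Without tumor 470, 633 probes were called (1.54% of all, and 341 or 0.828% lower in sarcomatoid tumors), and 2 of the 12 member probes were among them, both lower. Spint2 fell 8.07-fold (log2 difference -3.01, SE 0.59, adjusted p 0.048), and St14 passed on the second probe (-1.08, SE 0.21, adjusted p 0.048). On that probe both lung tumors were not well above background, nor was the 307 lung tumor for Spint2. The size of both differences thus rests partly on values near background. The lead St14 probe (-2.75, SE 0.67, adjusted p 0.089) and Prss8 (-1.83, SE 0.37, adjusted p 0.052) did not pass. Tumor 470 ran against its group on both called probes, and leaving it out after this was seen favored the calls. The fit holds the lung tumors on which the genes were picked, and counts each as independent of its mammary tumor. With mammary sarcomatoid tumors alone, neither probe passed (adjusted p 0.10 for Spint2 and 0.090 for St14). Over all the alternatives tried, the adjusted p of Spint2 ranged from 0.048 to 0.78, that of the lead St14 probe from 0.089 to 0.72 and that of Prss8 from 0.052 to 0.79. All 5 sarcomatoid tumors were below the 4 other adenocarcinomas on 5 of the 14 member probes (Prss8, Spint2, both of St14 and the second of Spint1), an order that 3.58% of all probes showed. With tumor 470 included, no member probe had this order.

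Within scan batch 2 (tumors 307 and 594 against 105 and 470), the difference was -0.20 for Spint2, -0.35 for the lead St14 probe and -0.27 for Prss8. Within scan batch 3 (both lung tumors against 131, 17 and 85), it was -3.74 for Spint2, -4.12 for St14 and -2.24 for Prss8. All 3 genes were lower in both batches, with 2 tumors at most in a sarcomatoid arm and tumor 470 in batch 2.

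**Figure D2:**
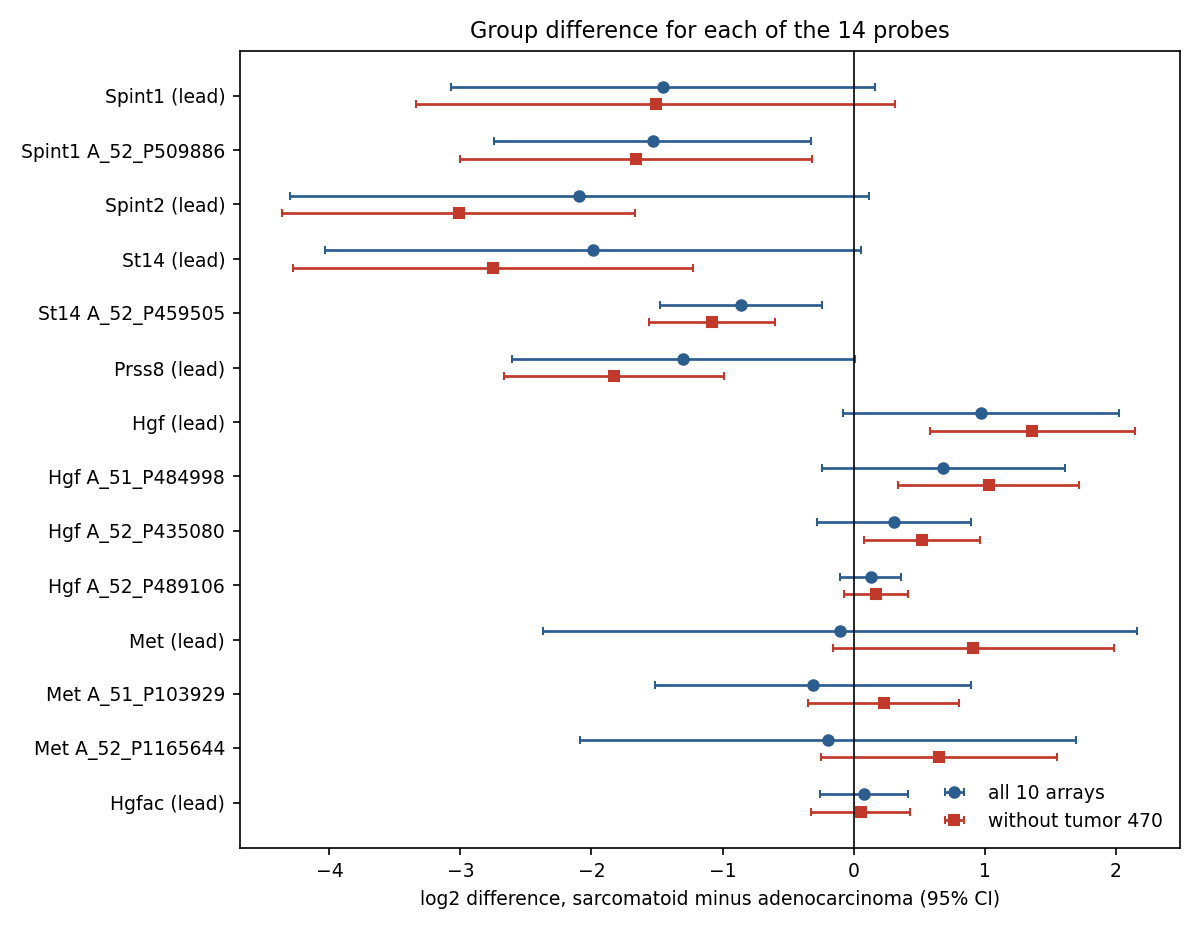
Log2 difference, sarcomatoid minus adenocarcinoma (x axis), with its 95% CI from limma for each of the 14 probes, on all 10 arrays (blue circles) and without tumor 470 (red squares); the intervals of Spint1 are a description, since its values chose the genes. The intervals of Spint2, St14 and Prss8 narrowed and moved down without tumor 470 (Spint2 from -2.09 to -3.01), and the lead probe of Met went from -0.10 to 0.91.

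Set against the adenocarcinomas alone, the mammary sarcomatoid tumors gave smaller differences for the proteases. No probe was called of 41174 (0%, smallest adjusted p 0.51), 3736 had an unadjusted p under 0.05 (9.07%), and 2 of the 12 member probes did, both of Hgf. The log2 difference was -0.98 for the lead St14 probe (SE 0.88, adjusted p 0.74), -1.48 for Spint2 (SE 1.13, adjusted p 0.69) and -1.05 for Prss8 (SE 0.69, adjusted p 0.65). Without tumor 470 these became -1.74 for St14 (adjusted p 0.063), -2.40 for Spint2 (adjusted p 0.10) and -1.58 for Prss8 (adjusted p 0.12), and 0.406% of all probes were called, of the members only 1 probe of Hgf.

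Both lung tumors lay below every mammary tumor on 4 of the 14 probes, both of Spint1 and both of St14, an order that 3.2% of all probes showed and on which Spint1 was picked. From mammary to lung tumor, the lead St14 probe was 10.7-fold lower for 323 and 4.69-fold lower for 307, close in size to Spint1. Spint2 was 3.26-fold lower for 323, and Prss8 was 1.56-fold lower for 307. The other lung tumor of each gene (307 for Spint2, 323 for Prss8) was lower than its mammary tumor but not well above background, so no fold is given. Lung minus mammary sarcomatoid was -2.52 for St14 (SE 1.10), -1.55 for Spint2 (SE 1.41) and -0.62 for Prss8 (SE 0.86), against a median of -0.0047 over all probes. These values come from the contrast that picked the genes and have no test.

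**Figure D3:**
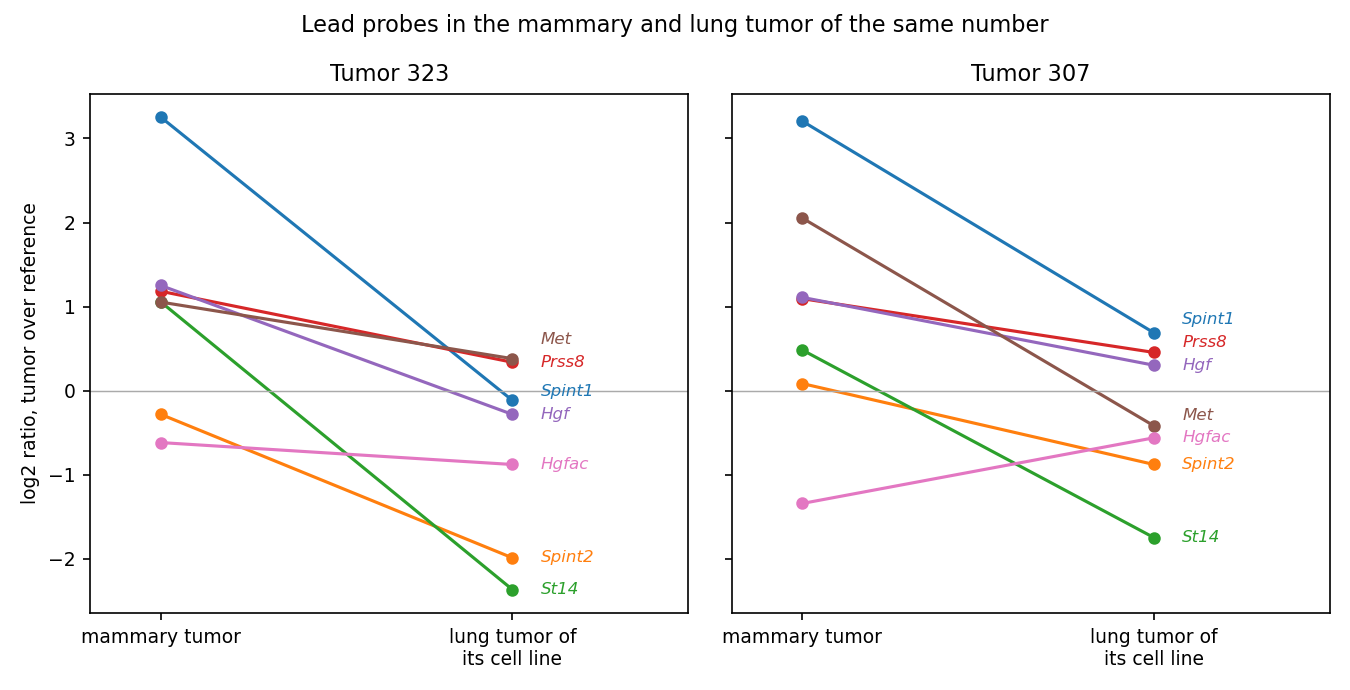
Log2 ratio of tumor over reference (y axis) of the lead probe of each gene in the mammary tumor and in the lung tumor grown from its cell line, for tumors 323 and 307. Spint1 and St14 had the steepest lines in tumor 323 (10.3-fold and 10.7-fold), and Hgfac alone was higher in a lung tumor (307).

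The epithelial markers moved with the proteases. St14, Spint2 and Prss8 were lowest in the 3 tumors with the lowest epithelial marker mean, the lung tumors and tumor 470. Spint1 was also lowest in the lung tumors on both probes, but it did not follow this order in tumor 470. On the lead probe it was 3.41 in tumor 470 beside an epithelial marker mean of -1.19, and 3.85 in tumor 594 beside 0.50. On the second probe tumor 470 (2.49) was the lowest adenocarcinoma and below tumor 594 (2.65). It was still above tumors 323 (2.01) and 307 (2.48) there. Of the 14 epithelial markers, 12 were well above background in tumor 470 and 9 and 11 in the lung tumors. Markers of lung epithelium (10 genes) had a mean of -0.12 to -0.05 in the lung tumors and 0.06 to 0.65 in the mammary tumors, and Sftpc, a surfactant gene of the alveolus, read -0.00 and 0.61 in the lung tumors, against 1.10 at most in the mammary tumors. Of these genes Aqp5, a water channel, read -0.95 and -1.23 in the lung tumors and 2.29 to 2.63 in the mammary sarcomatoid tumors. Lung minus mammary sarcomatoid was below 0 for 7 of the 10 genes, with the surfactant gene Sftpd at -1.09 (SE 0.36). It was 0.23 for Scgb1a1 and 0.11 for Ager. Myeloid markers (10 genes) had means of 1.84 to 2.67 in the mammary sarcomatoid tumors, 2.24 to 2.37 in the lung tumors, 2.23 in tumor 470 and -0.13 to 1.36 in the other adenocarcinomas. Basal and myoepithelial markers (7 genes) had means of at least 0.50 in the mammary sarcomatoid tumors, of -0.62 to -0.33 in the lung tumors, 1.09 in tumor 470 and 0.34 to 2.69 in the others. Endothelial markers (6 genes) had means of 1.65 to 2.74, 1.52 to 1.96, 2.90 and 1.46 to 2.38 in the same order. Sarcomatoid minus adenocarcinoma was -1.33 for Cdh1, -2.83 for Krt8, 1.33 for Vim, 1.53 for Fn1, 0.19 for Col1a1, 1.45 for Ptprc, 1.38 for Cd68 and 1.64 for Csf1r. It was -0.79 for Krt5, -0.88 for Krt14, -1.09 for Trp63, 0.04 for Pecam1, -0.05 for Cdh5 and -0.47 for Kdr. None of these 14 genes was called, as no probe was with all tumors. Without tumor 470, 3 epithelial markers were called lower (adjusted p 0.037 for Krt18, 0.037 for Esrp1 and 0.022 for Elf3). In the same fit 3 myeloid markers were called higher, and 0 in each other marker list. Of all probes, 1.54% were called in that fit. For the lung surfactant genes Sftpb and Sftpa1, sarcomatoid minus adenocarcinoma was -0.02 and 0.06, with Sftpa1 well above background on no array. The part of cell makeup in the differences of the members was not tested.

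**Figure D4:**
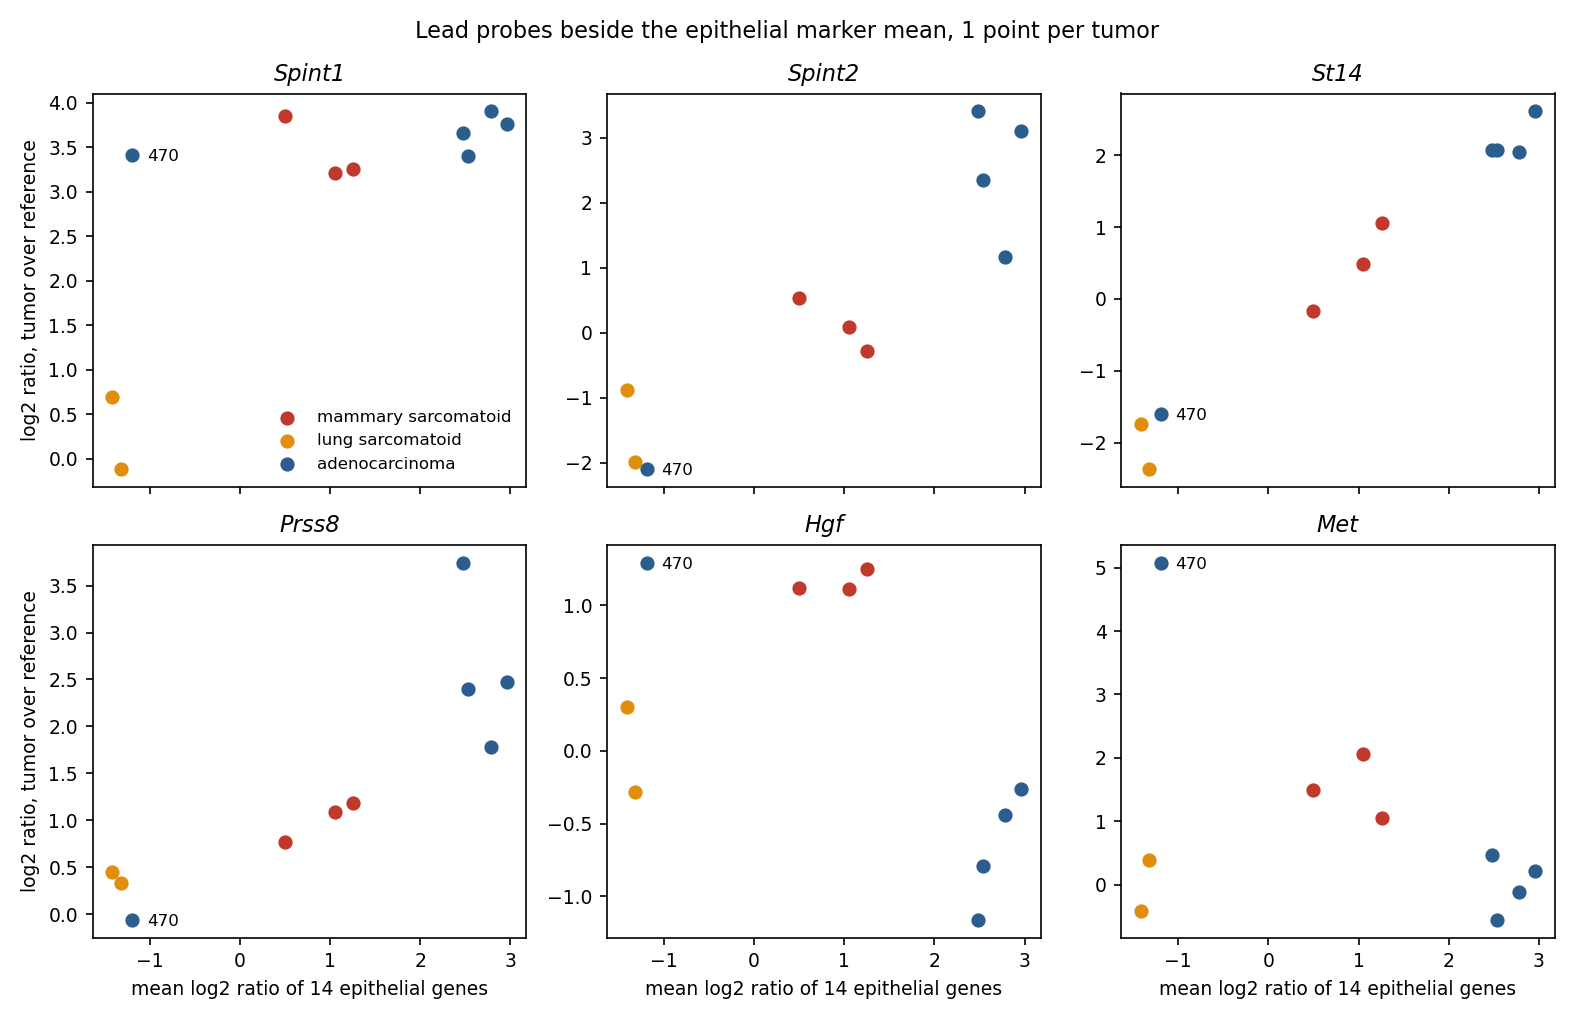
Log2 ratio of the lead probe of 6 genes (y axes) beside the mean log2 ratio of 14 epithelial markers (x axes), 1 point per tumor, coloured by group, with tumor 470 labelled. St14 lies near 1 rising line from the lung tumors and tumor 470 up to the adenocarcinomas, whereas Spint1 in tumor 470 (3.41) stays beside the adenocarcinomas, and Hgf and Met in tumor 470 (1.29 and 5.08) lie high.

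Among mammary tumors, Hgf, the ligand, was higher in the sarcomatoid tumors and tumor 470 than in the other adenocarcinomas, a split that St14 showed in reverse. Its lead probe (chr5:15580130-15580189 on mm7) read 1.25 (323), 1.11 (307) and 1.12 (594) in the mammary sarcomatoid tumors, 1.16 ± 0.08 (SD, n = 3). The adenocarcinomas read -0.26 (105), -1.16 (131), -0.44 (17) and -0.79 (85), and 1.29 in tumor 470. The 323 lung tumor read -0.28, within the range of the adenocarcinomas other than tumor 470. The 307 lung tumor read 0.30, above these and below the mammary sarcomatoid tumors. Tumor 470 was the highest of all 10 tumors, and the 3 mammary sarcomatoid tumors came next, above every other array.

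The other Hgf probes were dimmer. The probe at chr5:15627876-15627935 read 0.60, 1.10 and 1.64 in tumors 323, 307 and 594, 0.01 and 0.31 in the lung tumors, -0.45 to -0.17 in 4 adenocarcinomas and 1.43 in tumor 470. The probe at chr5:15624373-15624432 ranged from 0.29 to 0.93 in the mammary sarcomatoid tumors, was 0.18 and 0.17 in the lung tumors, -0.28 to 0.10 in 4 adenocarcinomas and 1.05 in tumor 470. The last probe was well above background in 5 of the 10 tumors and spanned only -0.29 to 0.20. On the 3 brighter probes the same 4 tumors (323, 307, 594 and 470) were the highest.

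Mammary sarcomatoid minus adenocarcinoma was 1.43 on the lead Hgf probe (SE 0.48, 95% CI 0.34 to 2.52, adjusted p 0.51) and 1.07 on the next brightest (SE 0.43, adjusted p 0.53). Without tumor 470 the lead probe rose by 1.82 (SE 0.23, adjusted p 0.035, 3.54-fold), and the next brightest was 1.41 higher (SE 0.23, adjusted p 0.056). The adjusted p of the lead probe reached 0.035 at its lowest over the alternatives and passed only without tumor 470. For all sarcomatoid tumors against adenocarcinomas the difference was 0.97 (SE 0.47, adjusted p 0.55), and 1.36 without tumor 470 (SE 0.34, adjusted p 0.097). Within scan batch 2 it was 0.60 and within scan batch 3 it was 0.81. In the lung tumors Hgf was 2.89-fold (323) and 1.75-fold (307) lower than in the paired mammary tumors. The members of each pair were in different scan batches, and with scan batch as a term the lung contrast of Hgf turned from -1.15 to 0.21. Tumors with high Hgf also had high mesenchymal and fibroblast markers only in part: the mean of these 12 genes was 2.01 in tumor 470 and 1.70 in 594, but 0.41 in 307, -0.24 in 323 and 1.86 in the 307 lung tumor, where Hgf was 0.30.

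Met, the receptor, was set apart by a single tumor. Its lead probe, 1 of those listed as AI838057 (chr6:17514221-17514280 on mm7), read 5.08 in tumor 470 and 0.21 (105), 0.47 (131), -0.12 (17) and -0.56 (85) in the other adenocarcinomas. The mammary sarcomatoid tumors read 1.05 (323), 2.05 (307) and 1.49 (594), above those 4, and the lung tumors read 0.38 (323) and -0.42 (307), among them. The probe named Met (chr6:17493755-17493814) read 2.68 in tumor 470 and -0.38 to 0.97 in the other 9 tumors, with tumor 323 the lowest. The third probe (chr6:17513642-17513701) read 4.52 in tumor 470 and -0.10 to 1.91 elsewhere. On it tumor 323 (0.30) lay below adenocarcinomas 105 (0.31) and 131 (0.67), so the order on the lead probe was not shared by the others. Spot brightness on the lead probe was 143782 in tumor 470, not saturated, against 2608 to 25537 in the other tumors, while the reference channel was 1781 in tumor 470 and 1902 to 2956 elsewhere.

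Sarcomatoid minus adenocarcinoma was -0.10 on the lead Met probe with an SE of 1.01 (95% CI -2.37 to 2.16, adjusted p 0.99), so the data with all 10 tumors cannot place this difference. Without tumor 470 it was 0.91 (SE 0.47, adjusted p 0.43), and for mammary sarcomatoid tumors alone 1.53 (SE 0.33, adjusted p 0.092). Within scan batches 2 and 3 it was -0.87 and 0.05. The probe named Met, without tumor 470, gave 0.23 for each of these contrasts (SE 0.25 and 0.31). From mammary to lung tumor, the lead probe was 1.59-fold lower for 323 and 5.54-fold lower for 307, and with scan batch as a term the lung contrast turned from -1.55 to 0.93. The probe named Met and the third probe went the other way for 323 (0.65 and 0.58 higher in the lung tumor on the log2 scale). In that pair only the lead probe was lower in the lung tumor, so the direction was not shared between probes.

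The genes next to Met were also high in tumor 470. This was looked at after the values of Met were seen, and the region was chosen by its values. Along 707 kb of chromosome 6 (chr6:17223081-17929799 on mm7), 12 of 15 probes were well above background on at least 5 arrays, and on 10 of these 12 tumor 470 exceeded every other array by at least 1 on the log2 scale. Over the whole array, 0.444% of 30422 such probes did so. Of 7 such probes beside the stretch, from Tes to Lsm8, none did. The 10 probes include those of Met itself, and the ends of the stretch were set by these values. The share and the count beside the stretch are thus a description and not a test.

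From one end to the other, the brightest readings in tumor 470 were 5.50 for Cav2 and 4.72 for Cav1 (caveolins, membrane coat proteins), 5.08 for Met, 5.56 for Capza2 (an actin capping protein), 3.57 for St7 and 3.49 for Wnt2 (a secreted Wnt ligand). The next highest array on the same probes read 1.65, 1.65, 2.05, 2.85, 0.86 and 2.92. Outside, Tes read 0.38 and Lsm8 -0.07 in tumor 470, within the range of the other tumors. The 2 probes in the stretch that exceeded the other arrays by less than 1 were 1 of Cav1, by 0.89, and that of Wnt2, by 0.57. Excess over the next highest array reached 3.85, on Cav2. DNA copy number was not measured in the data used here, and its part in these values was not tested.

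**Figure D5:**
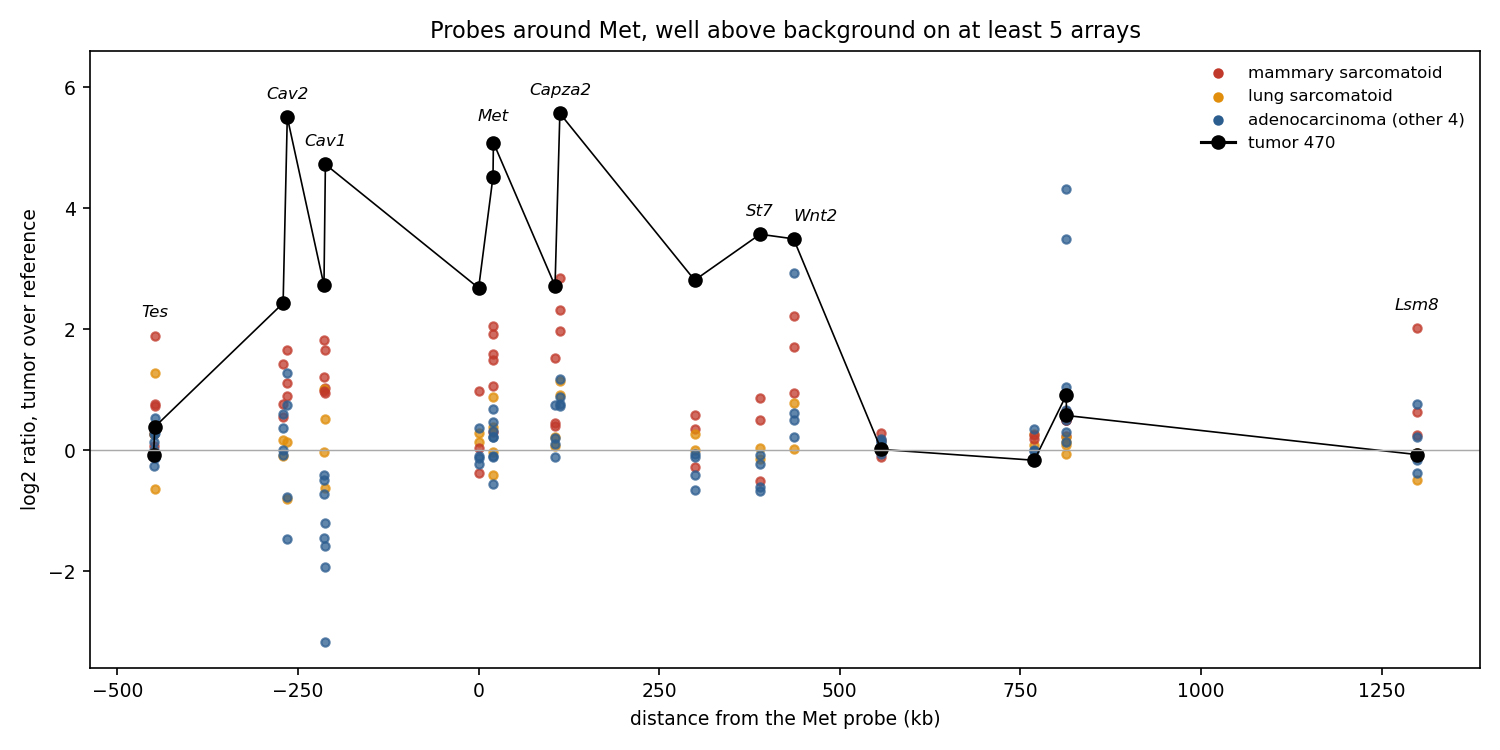
Log2 ratio of tumor over reference (y axis) for the 19 probes around Met that were well above background on at least 5 arrays, by distance from the probe named Met in kb (x axis); black points and line are tumor 470, coloured points the other 9 tumors. Tumor 470 was above all others from Cav2 to Wnt2 (excess 0.57 to 3.85) and within their range at Tes and Lsm8.

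Hgfac, the protease that activates HGF in blood and is made mostly in liver, was even across all tumors. Its probe (chr5:34110718-34110777 on mm7) read -0.62, -1.34 and -0.95 in tumors 323, 307 and 594, -0.88 and -0.56 in the lung tumors, and -1.07 to -0.72 in the adenocarcinomas, with tumor 470 at -1.03. The groups overlapped, and sarcomatoid minus adenocarcinoma was 0.08 (SE 0.15, 95% CI -0.26 to 0.41, adjusted p 0.92).

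Of 8 genes for proteases that cleave pro-HGF, 4 were lower and 4 higher in sarcomatoid tumors, with a median log2 difference of -0.0026 beside -0.0053 over all probes. Plau, the urokinase plasminogen activator, had a difference of 2.19 (SE 0.56, adjusted p 0.38), and 2.53 without tumor 470 (adjusted p 0.054). It read 3.16 and 1.81 in the lung tumors, 0.79 to 1.89 in the mammary sarcomatoid tumors, 0.86 in tumor 470 and -1.76 to -0.12 in the other adenocarcinomas. Hpn, hepsin, was called without tumor 470 on its brightest probe, with a difference of -1.93 (adjusted p 0.049), and St14 was called on its dimmer probe alone. In that fit 1.54% of all probes were called. In tumor 470 Hpn was above both lung tumors, which read 0.37 and 0.75, and below the mammary sarcomatoid tumors, at 1.59 to 2.02.

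Of 16 measured membrane-anchored serine proteases, 10 were lower in sarcomatoid tumors (median -0.13) and 13 were lower in lung than in mammary sarcomatoid tumors (median -0.18). On the brightest probe of each gene, 2 of the 16 were well above background on all 10 arrays and 1 on none. Without tumor 470 only Hpn was called, beside 1.54% of all probes. The call of St14 without tumor 470 was on its dimmer probe. After St14, Tmprss4 had the largest difference, -1.83 (SE 0.69, adjusted p 0.45).

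Other protease inhibitors (12 genes, Kunitz inhibitors and serpins except for Slpi) did not go with Spint1 and Spint2 as a list: 4 were lower in sarcomatoid tumors, with a median of 0.05. Slpi, a secreted inhibitor of leukocyte elastase outside both families, differed by -1.89 (SE 0.71, adjusted p 0.44). Serpinb5 (maspin) differed by -1.25 (SE 1.10, adjusted p 0.78). In the lung contrast 10 of the 12 were lower (median -0.33), and Serpinb5 was the one most like Spint1, at -0.10 and 0.02 in the lung tumors and 3.46 to 4.43 in the mammary sarcomatoid tumors, but at 0.95 in tumor 470, where Spint1 was high.

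Of 9 substrates of matriptase or prostasin, 5 were lower in sarcomatoid tumors (median -0.45) and none was called with all 10 tumors. Epcam, an adhesion protein cut by matriptase, differed by -2.32 (SE 1.33, adjusted p 0.62). It read -2.20 and -2.76 in the lung tumors and -2.62 in tumor 470, against 0.19 to 3.79 in the other 7 tumors, so the 3 tumors lowest for St14 were also the lowest for Epcam.

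Downstream of Met, 15 adaptors and effectors had a median of -0.06, and 8 were lower and 7 higher. Stat3 differed by -1.23 (SE 0.39, adjusted p 0.41) and Pik3r1, the regulatory subunit of the PI3-kinase that Pik3ca encodes in part, by -1.21 (SE 0.48, adjusted p 0.46), with Pik3r1 at -4.34 in tumor 470. None was called with or without tumor 470. The 6 genes that restrain Met had a median of 0.06, led in size by Ptpn1 (0.30, SE 0.19, adjusted p 0.68) and Errfi1 (-0.24, SE 0.34, adjusted p 0.87), and none was called.

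Of 7 receptors that partner with Met, 4 were lower, with a median of -0.76. Without tumor 470 the 2 genes called were both lower, in a fit that called 1.54% of all probes. Itga6, an integrin of the basement membrane contact, fell by 1.86 on the log2 scale (difference -1.86, adjusted p 0.023) and Erbb2 fell by 1.36 (difference -1.36, adjusted p 0.048). Erbb2 was also called without tumor 470 in the mammary sarcomatoid tumors (adjusted p 0.046), where 0.406% of all probes were called. With all 10 tumors Itga6 differed by -1.48 (SE 0.42, adjusted p 0.38), and its partner Itgb4 by -1.79 (SE 0.83, adjusted p 0.52). Mst1, the paralog of Hgf, stayed at -2.56 to -1.76 in all tumors. Its receptor Mst1r (Ron) read 3.55 in the 307 lung tumor and -0.39 to 1.99 elsewhere, with a difference of 0.16 (SE 0.75, adjusted p 0.97).

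The genes whose values ran closest to a member over the 10 arrays were found by Pearson's r among 25901 named probes well above background on at least 5 arrays. The arrays share tumor origins and scan batches, and r is given as a description. Closest to Spint1 were Serinc2 (r = 0.943), Pdk1 (0.932), Zfp106 (0.915), Atf2 (0.913) and Spty2d1 (0.911). All of these except Serinc2 spanned a narrower range than Spint1, and Serinc2 read -0.94 and -0.51 in the lung tumors and 1.69 to 3.83 in the mammary tumors, with tumor 470 at 3.09. Closest to St14 were Il17re (0.995), Grhl2 (0.990), a transcription factor of epithelial cells and 1 of the 14 epithelial markers, and Dennd11 (0.989). Closest to Hgf were Pcolce2 (0.989), an enhancer of procollagen processing, Ikbip (0.979) and Srxn1 (0.975). Closest to Met were Capza2 (0.981), its neighbour, 1700009N14Rik (0.972) and Gstt4 (0.967), an order set largely by tumor 470, where Gstt4 read 3.50.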

How the data were processed

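RNA of 10 mouse tumors was measured on 2-colour arrays. The authors deposited scanner files with spot intensity in both channels and a log10 ratio per spot (Agilent Feature Extraction), and a log2 table of 40197 probes normalized with limma, steps not given in the sources used here. Its column medians were -0.052 to 0.067; its direction follows red over green, and its centring is not stated. Intensities were corrected here by normexp (offset 50, median signals) and loess, with outlier spots left out (0.228% to 0.576%), in limma 3.58.1 (R 4.3.3). Depth has no count here; the number of arrays limits the precision. Samples follow the labels. Sarcomatoid and adenocarcinoma tumors were compared in a fit with 2 groups, and mammary or lung sarcomatoid tumors in a fit with 3, two-sided, Benjamini-Hochberg over 41174 probes, threshold 0.05. The scripts were tested on simulated data. P-values measure the spread between these arrays. The main fits counted each array as independent, although tumors 323 and 307 gave 2 arrays each and the 10 arrays hold 8 tumor origins. Part of the spread is thus within an origin. Probe names came from GRCm38.p6 tables (22951 by accession, 6661 by symbol, 3097 by synonym, 8465 unnamed).

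The members and lists were chosen with earlier results of these data known. Named genes were every member probe, from each pathway list those called and the 2 largest differences, the first 3 markers of each list where given, and the genes closest to 4 members. Where a gene had several probes, the brightest led. Each gene had a probe except Tmprss9.

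Alternatives were the deposited table, the Feature Extraction ratio, normexp offset 16, median centring, Aquantile, a filter on dim probes, scan batch as a term, slide as a random block, 1 value per tumor number, a block by tumor number (lung and mammary tumors share it by origin), a fit with 3 groups and leaving out each tumor. The region around Met was examined after its values were seen.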

Additional observations from a re-analysis of the deposited data

Results flagged for a closer look

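Each group of 5 tumors was searched for a tumor whose gap to the nearest other exceeded Dixon's critical value (0.71) on the member probes, the genes beside Met and the marker means. This found 15 cases in 58 searches, and 14 of the 15 were tumor 470 among the adenocarcinomas. Chance gives about 2.9 cases in 58 searches of values not picked beforehand, but 6 of the 14 lie beside Met, in a region chosen because tumor 470 was high there, so the count cannot be set against chance. For Met, tumor 470 read 5.08, 4.52 and 2.68 on the 3 probes, where the other 4 adenocarcinomas reached at most 0.47, 0.67 and 0.36. Beside Met, it read 2.43 on 1 probe of Cav2, 2.72 and 4.72 on both of Cav1, 5.56 on 1 of Capza2, and 2.81 and 3.57 on both expressed probes of St7. For Hgf it read 1.43 and 1.05 on 2 probes, above -0.17 and 0.10 at most in the others. For St14 it read -1.60 and -0.14, below 2.05 and 0.87 at least in the others. Its epithelial marker mean was -1.19, against 2.48 to 2.96.

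The remaining case was Capza2 in tumor 307 of the sarcomatoid group, at 1.51 on the dimmer probe against 0.07 to 0.45 in the other 4. These cases share 1 tumor and are not independent of each other.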

How the results depend on the processing

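No alternative scaling or background correction led to a call among the members. Leaving out each tumor in turn gave 0 to 2 member probes called for sarcomatoid against adenocarcinoma and 0 to 1 for mammary sarcomatoid tumors. The higher counts came without tumor 470, where 1.54% and 0.406% of all probes were called in these contrasts. Called counts were 0 to 1 for proteases that cleave pro-HGF, 0 to 2 for Met partner receptors and 0 to 1 for membrane-anchored proteases. Their higher counts also came without tumor 470. Without it Spint2 passed (-3.01) and Hgf passed in mammary sarcomatoid tumors (1.82). Lung minus mammary sarcomatoid for Spint1 ranged from -3.55 to -2.75 over the tumors left out, and the replicate block by tumor number over 323 and 307 gave -2.94, with no member's direction changed by it. With scan batch as a term, Met in mammary sarcomatoid tumors turned to -0.87. Sarcomatoid minus adenocarcinoma for Met turned positive without tumor 470 (0.91), the 323 lung tumor (0.03) or the 307 lung tumor (0.23). Over the tumors left out it ranged from -0.50 to 0.91. Hgfac, near 0 throughout, turned to 0.0053 for mammary sarcomatoid tumors in the authors' table and to -0.031 for all sarcomatoid tumors with median centring, and over the tumors left out these differences ranged from -0.20 to 0.16 and from -0.00068 to 0.19. Spint1 over all sarcomatoid tumors ranged from -1.87 to -0.88, the smallest without the 323 lung tumor. The cause of these turns was not tested. The lung contrast moved with scan batch as a term for Hgf (0.21), Met (0.93), Prss8 (-1.97), Spint2 (-3.54) and St14 (-3.78). That fit sets lung tumors against mammary ones only through the adenocarcinomas. With the Feature Extraction ratio the lung contrast of Spint2 moved as well, from -1.55 to -3.84. The other 585 of 616 recomputed values kept their direction and their side of the threshold, or moved by less than the spread. The number of arrays and dim probes of St14 and Hgf limit the precision.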
